A study of Mus musculus with 2 samples.

Results

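Cell cycle and DNA replication genes were examined for chromatin accessibility in motor neuron progenitor cultures. The 54 members, out of 21938 protein-coding genes, were a list of genes that license and fire replication origins, copy DNA, supply deoxynucleotides, drive or restrain the cyclin-dependent kinases, and carry cells through mitosis. For each member, the intervals that covered its transcription start site (TSS) were taken, with the intervals for which its TSS was the nearest. This gave 290 intervals out of 119502, of which 54 were TSS intervals and 236 were distal, meaning that they covered no annotated gene start of a protein-coding gene, although some covered the start of a further transcript.

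Open chromatin was profiled by ATAC-seq, which uses the transposase Tn5 to cut and tag accessible DNA. The cells were mouse embryonic stem cells of an Olig2-2A-mKate2 line, which makes the red protein mKate2 where Olig2, a transcription factor of the pMN progenitor domain, is expressed. At day 5 of a differentiation with SAG (100 nM), which activates Sonic hedgehog signalling, and retinoic acid (100 nM), mKate2-positive cells were sorted live, and each transposition received 50000 of them. Both libraries belonged to this 1 group (n = 2), which served in the study as the live-cell standard for a method on fixed cells, so no comparison between conditions was possible. The sort followed a reporter protein and not Olig2 itself, and by the study's own account the gate takes in some newly formed motor neurons and some cells that also hold NKX2.2. Nothing in the labels said whether the replicates were separate differentiations, so the spread between them may be technical.

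Cells enter division through D cyclins and their kinases, which inactivate the retinoblastoma proteins and release E2F factors. E2F factors then drive genes of the G1/S transition, including those for origin licensing, the MCM helicase and the DNA polymerases, while genes needed for G2 and mitosis commonly carry a cell cycle homology region (CHR) beside CCAAT boxes. In the developing neural tube, progenitors cycle and motor neurons leave the cycle as they form, with kinase inhibitors such as p27 rising at the exit.

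The libraries held 31876165 and 31672240 counts in intervals, and the TSS intervals of the members held a median of 1494 and 1468 counts, with a lowest value of 122. Promoter accessibility is given below as counts divided by the library's size factor and by the length of the TSS interval in kb, with replicate 1 before replicate 2 and errors as SD over both (n = 2). It describes open chromatin and not transcription, and in bulk cells a share of open cells cannot be told apart from the degree of opening in each cell. All 5 pMN and shared progenitor markers had a TSS interval, with a median of 946 ± 23.2, and Olig2 itself was at 963 and 929.7. The lowest of the 5 was Pax6 at 184 and 189. Of the p3 and floor plate markers, Nkx2-2 had one at 491 and 477, while Foxa2 and Shh had none. Of 6 fibroblast markers 3 had one (Col1a2 at 129 and 117, Dcn at 247 and 250, Thy1 at 249 and 246). The median over all 6, those without a TSS interval included, was 61.5 ± 4.38. Of 5 pluripotency markers 3 had one (Klf4 at 585 and 544, Zfp42 at 234 and 241, Esrrb at 136 and 142). Pou5f1 and Nanog had none. Of 6 markers of newly born motor neurons 4 had one, with Mnx1 at 594 and 520.3 and Isl1 at 1061 and 1113, while Chat and Isl2 had none. All 4 pan-neuronal markers had one, with a median of 401 ± 6.88. Chromosome 8 stood apart from the other autosomes, its median TSS density being 1.41 times that of all TSS intervals against 0.933 to 1.15 elsewhere, and it carries 3 members.

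Every member had an accessible promoter. All 54 of 54 had a TSS interval, against 61.5% of protein-coding genes (13500 of 21938). The median promoter accessibility of the members was 1282 in replicate 1 and 1253 in replicate 2 (1277 ± 20.6 for the mean of both), and the median over all protein-coding genes was 402 ± 8.07. Among genes with a TSS interval the median was 883.5 ± 19.2, and 43 of the 54 members lay above it. The median member stood at percentile 83.4 of all genes, with 41 members in the top 25% and 11 in the top 10%. Mean accessibility ran from 404 at E2f2 to 2592 at Pcna, a range that the replicates shared, with a Spearman correlation of 0.992 across the 54 genes, which are not independent replicates. Of the 53 neighbouring pairs in this order, 32 had overlapping replicate values and could not be ranked.

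**Figure D1:**
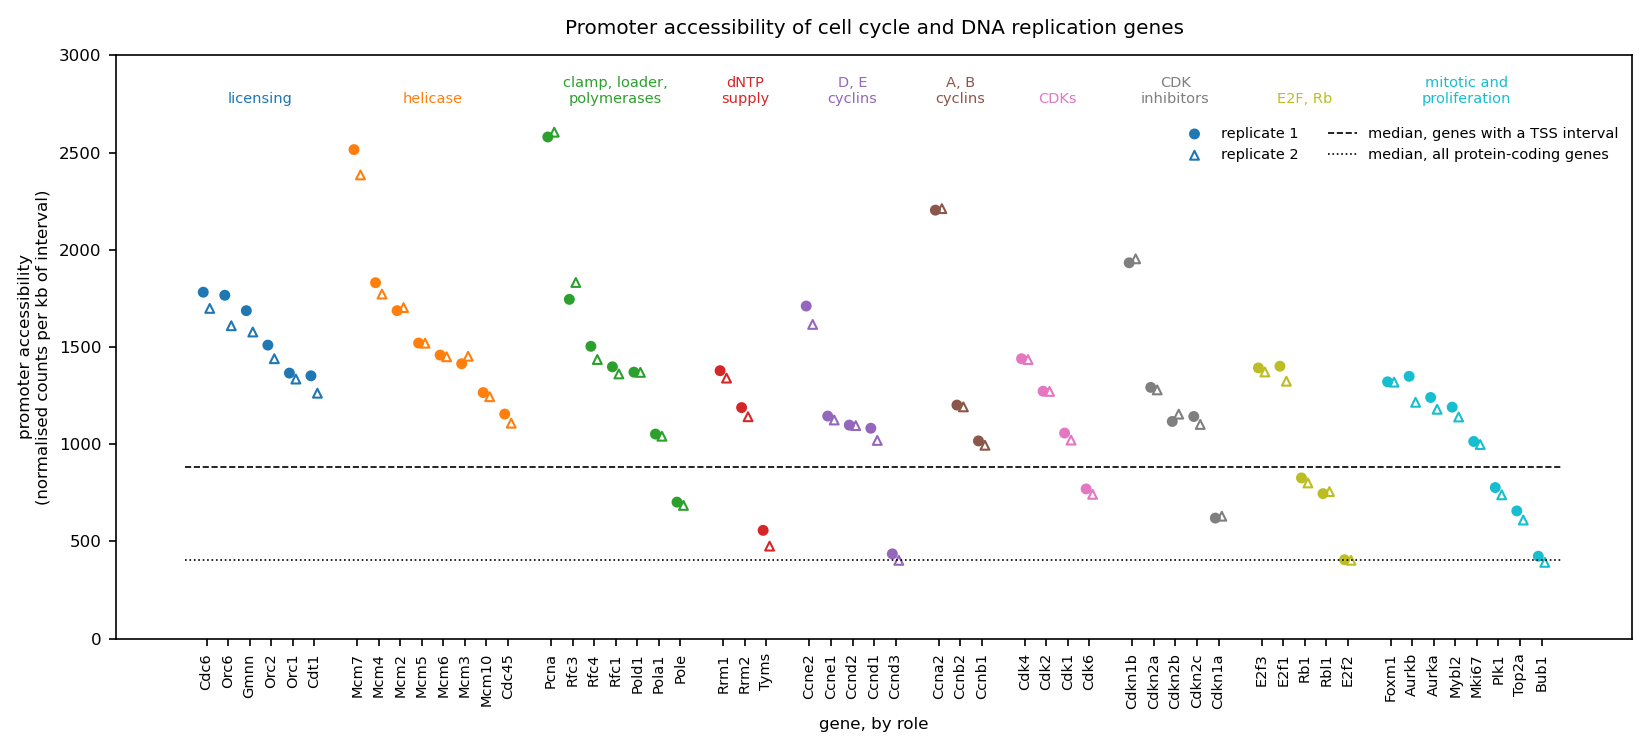
Promoter accessibility of the 54 members in normalised counts per kb of TSS interval (vertical axis), grouped by role, with replicate 1 as filled circles, replicate 2 as open triangles, and the medians of genes with a TSS interval (dashed) and of all protein-coding genes (dotted). All origin licensing and helicase genes lie above the dashed line at 883.5, while E2f2, Bub1 and Ccnd3 lie near the dotted line at 402.

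The genes that build and load the replicative helicase had the most accessible promoters of the 10 roles by density. This order depended on the division by interval length. By counts, the middle inhibitor gene, Cdkn2a, held 2175 and 2155, more than Orc1, Orc2, Cdc6 and Gmnn but fewer than Orc6 and Cdt1. The 6 origin licensing genes had a median of 1553 ± 63.6 and all lay above the median of genes with a TSS interval. Cdc6, which loads the helicase onto origins, had 1782 and 1698 normalised counts per kb in replicates 1 and 2. Gmnn, the geminin gene whose product blocks relicensing by binding CDT1, had 1687 and 1577. Of the origin recognition complex genes, Orc2 was at 1509.6 and 1439.6 and Orc1 was at 1366 and 1335. Orc6 gave 1766 and 1609 and Cdt1, the loading partner of CDC6, 1352 and 1262, and both lie on chromosome 8, whose promoters counted higher than those of other chromosomes, as does Mcm5 of the helicase. Without these 3 members the median was 1255 in place of 1277, and the part of the chromosome in their own values was not tested.

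The 8 genes of the MCM helicase and its cofactors had a median of 1487 ± 2.31. Mcm7, at chr5:138170919-138172509, was the second most accessible member promoter with 4000 and 3796 counts, or 2515 and 2385 per kb, but its interval also covered the TSS of Ap4m1, an adaptor complex gene 420 bp away. Mcm4 had 1830.5 and 1772 and shared its interval with Prkdc, the DNA-dependent protein kinase gene. The other core subunits lay close together in density. Mcm2 had 1687 and 1702, Mcm5 1519.9 and 1519, Mcm6 1458 and 1449.5 and Mcm3 1414 and 1452. By density the activating factors were lower than every core subunit in both replicates, with Mcm10 at 1265 and 1244 and Cdc45 at 1155 and 1108. By counts Cdc45, with 1630 and 1565 over 1412 bp that it shared with Ufd1, was above Mcm2, Mcm3 and Mcm6 but below Mcm4, Mcm5 and Mcm7. Mcm10, with 1065 and 1048 counts, was above Mcm2 alone, which held 897 and 906 over 532 bp.

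Among the genes of the sliding clamp, its loader and the polymerases (median 1380 ± 20.3), Pcna stood first of all 54 members. Its TSS interval, chr2:132252522-132253495, held 2512 and 2538 counts, a density of 2580.1 and 2605, and PCNA is the ring that tethers polymerases to DNA. The clamp loader genes were at 1745 and 1832 for Rfc3, 1503 and 1436 for Rfc4 and 1398 and 1361 for Rfc1. The polymerase genes were lower than Pcna throughout, and the 3 catalytic subunits differed from each other in density beyond the spread of the replicates. Pold1, of the lagging strand enzyme, had 1370.4 and 1369, Pola1, of the primase complex, 1052 and 1041, and Pole, of the leading strand enzyme, 702 and 685. By counts Pole was the highest of the 3, with 1603 and 1566 in an interval of 2285 bp that it shared with Pxmp2. Pold1 held 1452 and 1452 counts and Pola1 1043 and 1033. Pola1 lies on the X chromosome, and the part of copy number in its value was not tested. The 3 genes of deoxynucleotide supply had a median of 1165 ± 33.4. Of the ribonucleotide reductase genes, Rrm1 had 1378 and 1339.8 and Rrm2 had 1188 and 1141. Tyms, for thymidylate synthase, had 557 and 476, the widest relative gap between replicates of any member TSS interval (log2 ratio -0.23).

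Cyclin promoters ranged from among the highest to among the lowest of the members. Ccna2, the cyclin of S phase and G2, had 2204 and 2212. Of the mitotic cyclins, Ccnb2 had 1201 and 1192 and Ccnb1 had 1017 and 994. Of the G1 cyclins, Ccne2 was highest at 1710.5 and 1616, ahead of Ccne1 at 1145 and 1124. Ccnd2 (1098 and 1095) and Ccnd1 (1082 and 1019) lay near each other, while Ccnd3 had only 132 and 122 counts (436 and 402 per kb) in a TSS interval of 303 bp, the shortest among the members. The value for Ccnd3 depended on which start was used. The annotated gene begins at a far upstream transcript, and 6 shorter protein-coding transcripts begin 88.4 to 91.3 kb further on, inside another interval, chr17:47593165-47596325, that held 2424 and 2444 counts (767 and 773 per kb). That interval lay nearer to the annotated start of another gene, Bysl, and was therefore not among the distal intervals of Ccnd3.

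The 4 cyclin-dependent kinase genes ranged from 1439 and 1435 at Cdk4 and 1272 and 1271 at Cdk2 to 1057 and 1021 at Cdk1, the mitotic kinase, and 769.7 and 742 at Cdk6, the other kinase of the D cyclins. By counts Cdk6 was the highest of the 4, with 2726 and 2630 over 3543 bp, against 1997 and 1993 at Cdk4. The median was 1155 ± 13.1 for the kinases and 1136 ± 8.55 for their inhibitors. Cdkn1b, which encodes p27, was the highest inhibitor promoter at 1933 and 1953 and stood at percentile 95.4 of all genes. Cdkn2c, for p18, had 1142 and 1101 and Cdkn2b, for p15, 1117 and 1154. Cdkn2a encodes p16 and p19Arf from separate first exons, and both starts were open. The annotated gene start, the upstream one, had 1292 and 1279, and the start 12.5 kb downstream had 757 and 745 counts, or 657 and 646 per kb. Cdkn1a, the p53 target that encodes p21, was the lowest inhibitor at 619.8 and 629, although the start of 2 further protein-coding transcripts 2.79 kb downstream lay in an interval of higher density (955 and 896).

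The regulators of the programme were the least accessible role by density, with a median of 813 ± 18.3 for the E2F and retinoblastoma genes. Their TSS intervals were 1429 to 3550 bp long, and by counts the role was not the lowest. Its middle gene by counts, Rb1, held 2003 and 1942, against 1113 and 1083 for Rrm1, the middle gene of deoxynucleotide supply. In both replicates E2f3 and E2f1 lay above the other 3 genes. These activating E2F genes had 1392 and 1371 at E2f3 and 1401 and 1324 at E2f1. Rb1 was at 826 and 800.5 and its relative Rbl1, for p107, at 746 and 756. E2f2, the third activating E2F gene, had 677 and 673 counts over 1670 bp (406 and 403 per kb), at percentile 50.1 of all genes. Its mean was the lowest of all members, but its replicate values overlapped those of Bub1 and Ccnd3, and in replicate 2 both were lower.

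Mitotic and proliferation genes had a median of 1086 ± 23.4, and 5 of the 8 lay above the median of genes with a TSS interval. The transcription factor genes of the G2/M programme had 1321 and 1319 at Foxm1 and 1190.4 and 1139.8 at Mybl2. The Aurora kinase genes had 1349 and 1215 at Aurkb and 1240.2 and 1179.5 at Aurka, and Mki67, the Ki-67 proliferation marker, had 1014 and 998. The remaining mitotic genes were lower. Plk1, the polo-like kinase gene, had 777 and 739, Top2a, for topoisomerase II alpha, 657 and 609.7, and Bub1, of the spindle checkpoint, 424 and 392.

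Other genes of the same pathways, taken as a list of 71 that are not members, were close to the members. Of these, 65 (91.5%) had a TSS interval, with a median of 1271 ± 28.9 over all 71, and 50 lay above the median of genes with a TSS interval. The 6 without one were Cdca8, Gins1, Lig1, Mcm9, Pole4 and Rfc2. The highest were Gins2, of the helicase cofactor GINS, at 3432 and 3456, and Cdkn2d, for the inhibitor p19Ink4d, at 3127 and 3218, both above Pcna.

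Some of these TSS intervals covered a pair of start sites. A TSS interval that also covered the TSS of another protein-coding gene was found for 8 of the 54 members, against 18.6% of genes with a TSS interval. The pairs were Orc1 with Prpf38a, Orc6 with Vps35, Mcm4 with Prkdc, Mcm7 with Ap4m1, Cdc45 with Ufd1, Pole with Pxmp2, Aurka with Cstf1, and Foxm1 with Rhno1. The start sites of a pair were 56 to 466 bp apart, and the counts of such an interval could not be divided between the genes. In length the members' TSS intervals were ordinary, with a median of 1260.5 bp against 1229 bp for all TSS intervals. They reached further into the gene (median 794 bp) than upstream (median 442.5 bp). Their GC content had a median of 59.4% against 60.2%, and 49 of 54 had an observed to expected CpG ratio over 0.6, against 70.3% of all TSS intervals.

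Promoter motifs were counted next, since E2F and CHR elements are known elements of G1/S and G2/M promoters. In the window from 250 bp before to 50 bp after each TSS, exact matches on either strand were sought to 4 E2F octamers, TTTGGCGC, TTTCCCGC, TTTGCCGC and TTTCGCGC. At least 1 was present in 19 of the 54 members (35.2%), against 2.79% of all protein-coding promoters and 4.15% of those with a TSS interval. The matches were in Orc1, Cdc6, Cdt1 and Gmnn among the licensing genes, in Mcm3, Mcm4, Mcm5 and Mcm6 among the helicase genes, and in Rfc3, Pola1 and Pole among the replication enzymes. All 5 E2F and retinoblastoma genes held one, as did Cdk1, Cdk2 and Cdkn2a. None was found in the cyclins, the deoxynucleotide genes or the 8 mitotic genes. The members with an octamer had a median accessibility of 1350.2 and the others 1196, and E2f2, among the least accessible members, held one too.

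The 4 most accessible members with an E2F octamer are shown to let the matches be read in place. Each sequence runs 5′ to 3′ in the direction of the gene over 300 bp of the mm10 assembly, and ends 50 bp after the TSS, with the octamers in capitals. Mcm4 (chr16:15637351-15637650), Rfc3 (chr5:151651193-151651492) and Gmnn (chr13:24761874-24762173) are on the minus strand and Cdc6 (chr11:98907551-98907850) is on the plus strand.
Mcm4: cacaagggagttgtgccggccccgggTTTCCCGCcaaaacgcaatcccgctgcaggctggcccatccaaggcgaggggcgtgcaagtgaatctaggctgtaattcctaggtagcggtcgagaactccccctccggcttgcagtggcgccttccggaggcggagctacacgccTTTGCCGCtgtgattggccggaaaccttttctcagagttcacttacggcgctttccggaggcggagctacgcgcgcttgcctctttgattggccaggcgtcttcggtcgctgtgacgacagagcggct
Rfc3: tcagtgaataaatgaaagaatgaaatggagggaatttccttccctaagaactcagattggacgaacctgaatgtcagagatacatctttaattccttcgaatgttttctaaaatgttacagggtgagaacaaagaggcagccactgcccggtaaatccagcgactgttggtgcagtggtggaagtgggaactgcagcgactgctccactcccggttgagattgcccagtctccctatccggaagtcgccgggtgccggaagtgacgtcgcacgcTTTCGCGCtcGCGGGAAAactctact
Cdc6: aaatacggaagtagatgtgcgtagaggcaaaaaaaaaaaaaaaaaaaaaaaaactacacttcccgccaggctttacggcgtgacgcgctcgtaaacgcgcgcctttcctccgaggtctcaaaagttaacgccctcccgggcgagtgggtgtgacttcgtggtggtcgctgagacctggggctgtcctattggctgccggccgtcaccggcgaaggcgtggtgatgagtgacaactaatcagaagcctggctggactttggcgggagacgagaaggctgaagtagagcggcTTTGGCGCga
Gmnn: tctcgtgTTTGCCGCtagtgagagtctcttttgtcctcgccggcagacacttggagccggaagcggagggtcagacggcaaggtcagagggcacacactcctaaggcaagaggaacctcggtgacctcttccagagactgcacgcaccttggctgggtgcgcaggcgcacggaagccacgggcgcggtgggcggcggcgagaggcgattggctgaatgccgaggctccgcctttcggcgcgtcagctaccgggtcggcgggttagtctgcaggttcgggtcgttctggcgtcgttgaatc
Mcm4 and Rfc3 each held 2 octamers. Those of Rfc3 and the one of Cdc6 lay after the TSS, whereas the one of Gmnn lay near the far end of the window. Over the 19 members there were 27 matches, some of which overlapped, with centres at a median of -14 bp from the TSS, and 18 were within 100 bp of it.

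The CHR, TTTGAA, was concentrated at the mitotic genes by count. It was found in 12 of the 54 members (22.2%), against 16.4% of all promoters and 11.4% of those with a TSS interval. Of the 8 mitotic genes, 6 held it (Mki67, Top2a, Plk1, Aurka, Aurkb and Foxm1), while none of the licensing or deoxynucleotide genes did. The others were Mcm2, Cdc45, Ccnb2, Cdk1, Cdkn2b and E2f3, and only Cdk1 and E2f3 held both CHR and an E2F octamer. A CCAAT box, CCAAT, was present in 34 members (63.0%) against 39.0% of all promoters and 38.2% of those with a TSS interval, and both CHR and CCAAT in 11 members (20.4%) against 7.17% and 4.79%. The GC box GGGCGG was found in 43 members (79.6%), against 43.0% of all promoters but 64.0% of those with a TSS interval, and a TATAAA match in 3 members (Mcm7, Cdc45 and Aurkb, 5.56%), against 12.6% of all promoters and 6.77% of those with a TSS interval. In a wider window, from 500 bp before to 100 bp after the TSS, CHR was found in 22 of the 54 members, against 34.4% of all promoters. Matches of letters are not evidence that a factor was bound.

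Mcm2 and E2f3, the most accessible members with both CHR and CCAAT, are shown in the same way, with CHR and CCAAT in capitals on either strand (ATTGG being CCAAT on the opposite one). Mcm2 (chr6:88898731-88899030) and E2f3 (chr13:29986014-29986313) are on the minus strand.
Mcm2: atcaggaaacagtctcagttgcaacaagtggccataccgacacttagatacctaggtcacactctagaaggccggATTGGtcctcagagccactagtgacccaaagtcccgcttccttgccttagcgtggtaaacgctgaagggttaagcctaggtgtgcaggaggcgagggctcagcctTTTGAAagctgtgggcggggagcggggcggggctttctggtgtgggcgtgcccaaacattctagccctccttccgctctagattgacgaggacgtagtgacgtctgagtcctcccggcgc
E2f3: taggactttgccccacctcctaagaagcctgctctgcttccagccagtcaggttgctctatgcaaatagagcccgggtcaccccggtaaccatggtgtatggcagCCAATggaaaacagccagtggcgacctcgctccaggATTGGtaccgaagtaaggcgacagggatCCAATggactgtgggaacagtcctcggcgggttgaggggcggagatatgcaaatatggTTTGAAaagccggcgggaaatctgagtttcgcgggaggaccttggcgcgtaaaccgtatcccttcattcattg
In E2f3 the CHR lay 20 bp before the TSS, beside an E2F octamer that is not in capitals here.

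**Figure D2:**
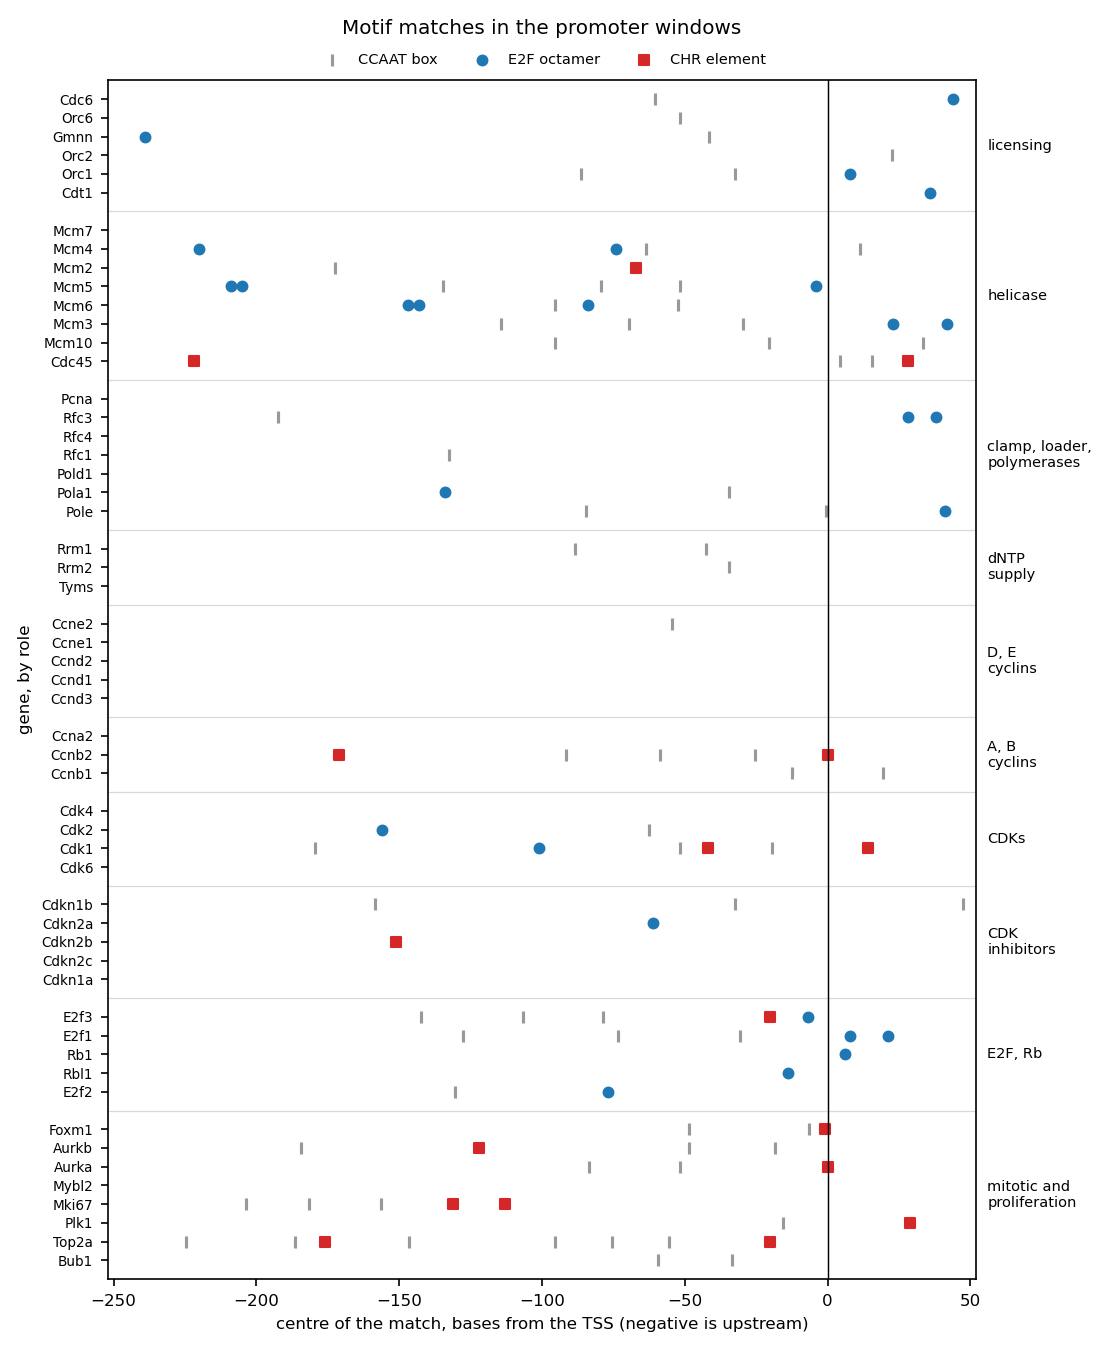
Positions of E2F octamers (blue circles), CHR matches (red squares) and CCAAT boxes (grey ticks) in the window from 250 bp before to 50 bp after the TSS, 1 row per member, grouped by role (horizontal axis, bp from the TSS). Blue circles occur in the licensing, helicase, polymerase and E2F rows, among others, and not in the mitotic rows, where 6 of 8 genes have red squares.

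Away from promoters, accessible elements were concentrated at few members. Of the 236 distal intervals, 114 (48.3%) were assigned to 6 members: Mki67 had 35, Ccnd2 and Cdk6 22 each, E2f3 13, Cdkn2b 12 and Ccnd1 10. None was assigned to 13 members (24.1%, against 27.0% of all protein-coding genes and 19.2% of those with a TSS interval), which were Orc1, Orc6, Cdc45, Cdt1, Pcna, Pole, Ccna2, Ccnb1, Cdk4, Aurka, Bub1, Top2a and Foxm1. By role, the median number was 8 for the D and E cyclins and 6 for the inhibitors, against 0.5 for origin licensing and 1.5 for the helicase. The members also differed in room, meaning the stretch of chromosome nearer to a gene's TSS than to any other, which had a median of 41.2 kb for the members and 47.7 kb for all genes. It was 1772 kb at Cdk6 and 679 kb at Mki67 but 169 kb at Ccnd2, so that Ccnd2 had 13.0 distal intervals per 100 kb, Mki67 5.16 and Cdk6 1.24. By contrast, Pola1 had 2 in 184 kb and Ccnb2 4 in 148 kb. The part of room in these counts was not tested.

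**Figure D3:**
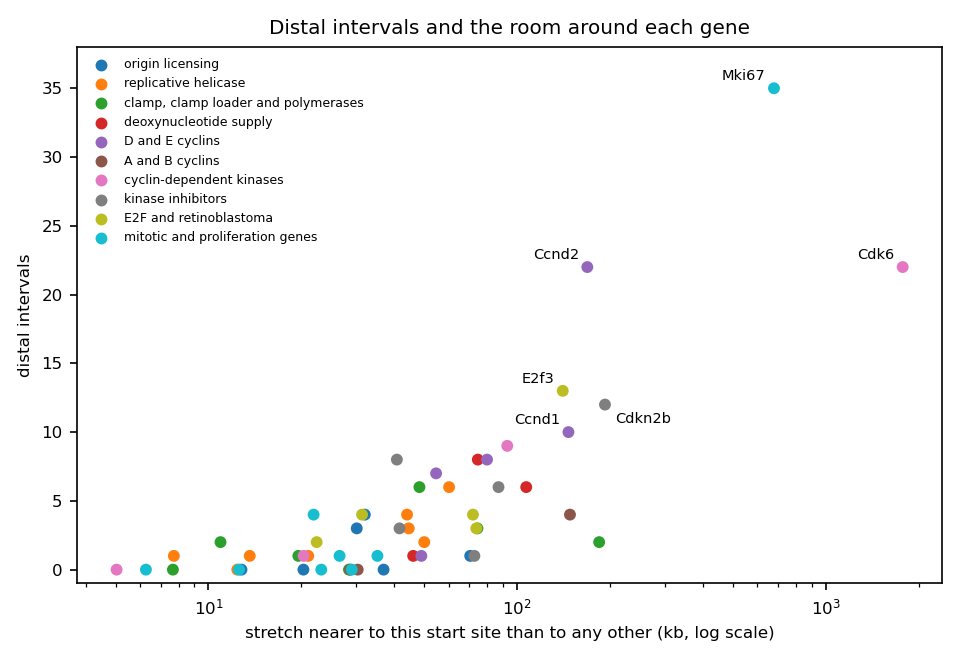
Number of distal intervals of each member (vertical axis) against the stretch nearer to its TSS than to any other protein-coding TSS (horizontal axis, kb, log scale), coloured by role. Mki67 with 35 and Cdk6 with 22 have the widest stretches, and Ccnd2 reaches 22 within 169 kb.

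As single elements, the distal intervals of the members were typical. Their median density was 125.3 against 125.3 for all distal intervals, and 87 of them (36.9%) had a mean normalised count over 100, against 32.4% of all. Of the 236, 100 lay between genes, 83 in introns and 53 over exons of annotated genes. The densest ones reached the level of promoters. At Ccnd2, an interval over an exon 4028 bp downstream of the TSS (chr6:127147796-127148165) had 629 and 628 counts in 370 bp (1701 and 1697 per kb). This was above the Ccnd2 promoter in density but not in counts, since the Ccnd2 TSS interval held 4040 and 4034 over 3681 bp. At E2f2 an intergenic interval 11992 bp upstream (chr4:136159386-136160402) had 1447 and 1411 counts (1423 and 1387 per kb), 3.48 times the density of the E2f2 promoter.

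Others of this kind lay at kinase inhibitors and G1 cyclins, among other members. An intergenic interval 9510 bp upstream of Cdkn1a (chr17:29080719-29081466) had 1192 and 1105 normalised counts per kb, and an intronic one 6036 bp downstream of the Ccnd3 start (chr17:47511087-47511767) had 862 and 754. Together with Rrm2 (chr12:24710197-24710470, 1216 and 1186) and Rbl1 (chr2:157169900-157170928, 868 and 915), these made 6 members with a distal interval denser than their promoter in the mean, although at Rrm2 the replicate values of the interval and the promoter overlapped. In counts the Rrm2 interval (333 and 325) and the Rbl1 one (893 and 942) were below their promoters (2594 and 2493, 1065 and 1081), as at Ccnd2. At E2f2, Cdkn1a and Ccnd3 the interval was higher in counts too. The share of all genes with a distal interval denser than the promoter was not counted, so the 6 members cannot be set against it. Downstream of Cdkn1b, chr6:134926811-134929226 had 2498 and 2498 counts and covered the start of Lockd, a long non-coding RNA gene. Aurkb had an upstream interval at chr11:69039626-69041906 with 1334 and 1214, Ccne1 one 21305 bp downstream at chr7:38084647-38086229 with 1007 and 1003, and Ccnd1 one over an exon at chr7:144937575-144938009 with 982 and 848. In counts the Aurkb interval, with 3041 and 2770, exceeded the Aurkb promoter, with 1362 and 1228.

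The share of a gene's counts that lay in its TSS interval set the roles side by side. For the 54 members together it was 66.5% in replicate 1 and 66.2% in replicate 2, against 60.4% and 59.6% for all genes with a TSS interval. It was 94.8% and 94.5% for origin licensing, 87.7% and 86.6% for the helicase, 91.9% and 91.8% for the clamp and polymerases, and 94.8% and 95.1% for the A and B cyclins. The D and E cyclins had 40.3% and 39.8% and the inhibitors 46.1% and 46.9%. The lowest members were Ccnd3 (10.7% and 10.2%), Cdkn1a (11.8% and 12.6%), Ccnd1 (17.5% and 18.0%), E2f2 (20.6% in replicate 1 and 20.95% in replicate 2), Aurkb (25.1% and 25.1%) and Ccnd2 (35.9% and 34.9%). Replicates differed by far less than members did. In all, 25 members (46.3%) had over 90% of their counts at the TSS and 10 (18.5%) under 50%, against 36.1% and 27.1% of genes with a TSS interval. Distal intervals over a start of another transcript of the same gene count as distal here, and there were 5 of them, at Cdkn1a, Cdkn2a, E2f2, Mcm2 and Mcm5. The one at E2f2 (chr4:136179988-136181040) had 853 and 811 counts, or 810.4 and 769.9 per kb, above the E2f2 promoter, and those at Mcm2 (62 and 64 counts) and Mcm5 (18 and 34 counts) were weak. The interval over the downstream Ccnd3 starts is not counted.

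**Figure D4:**
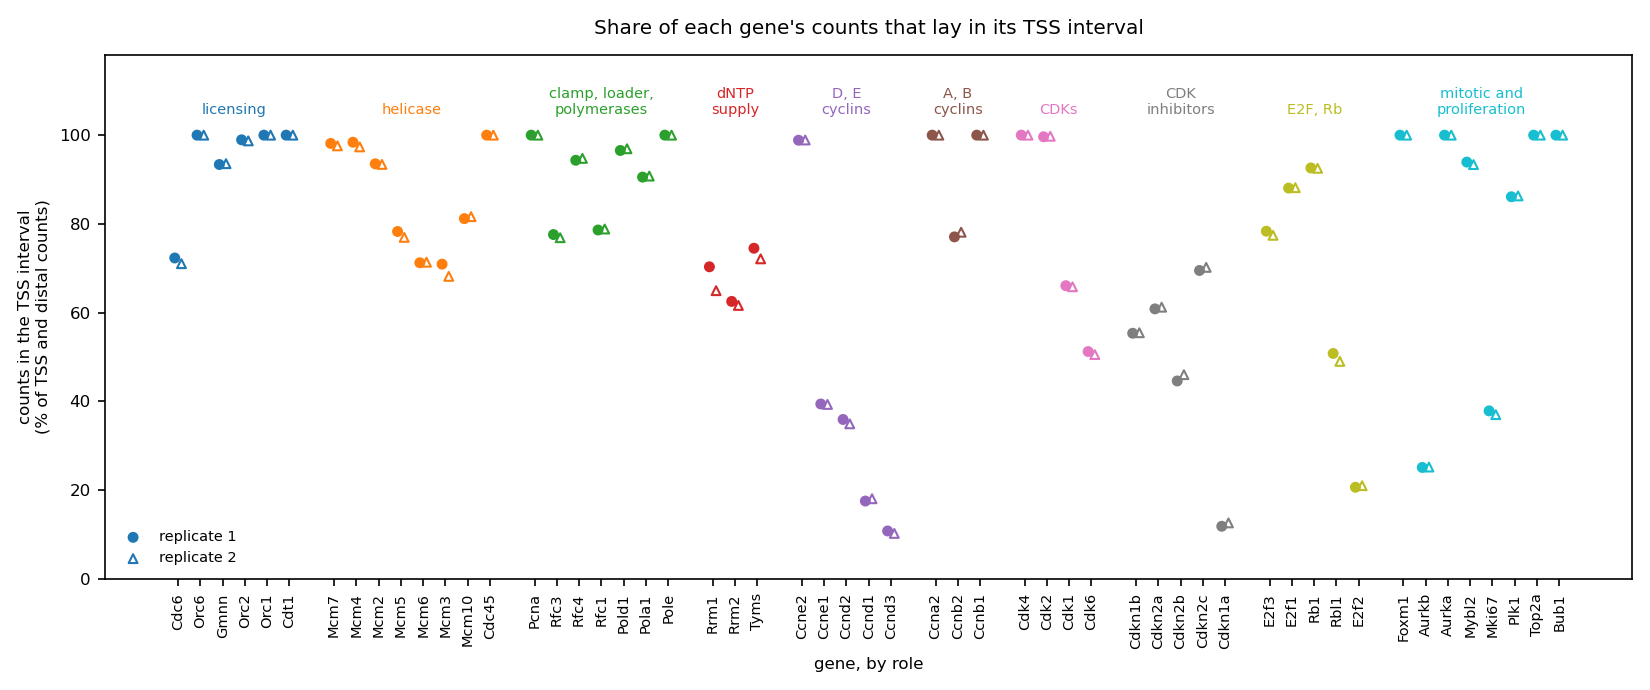
Share of each member's counts (TSS and distal intervals together) that lay in its TSS interval, in % (vertical axis), by role, with replicate 1 as filled circles and replicate 2 as open triangles. Licensing, helicase and polymerase genes lie above 60%, whereas 4 of 5 D and E cyclins lie below 40%.

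**Figure D5:**
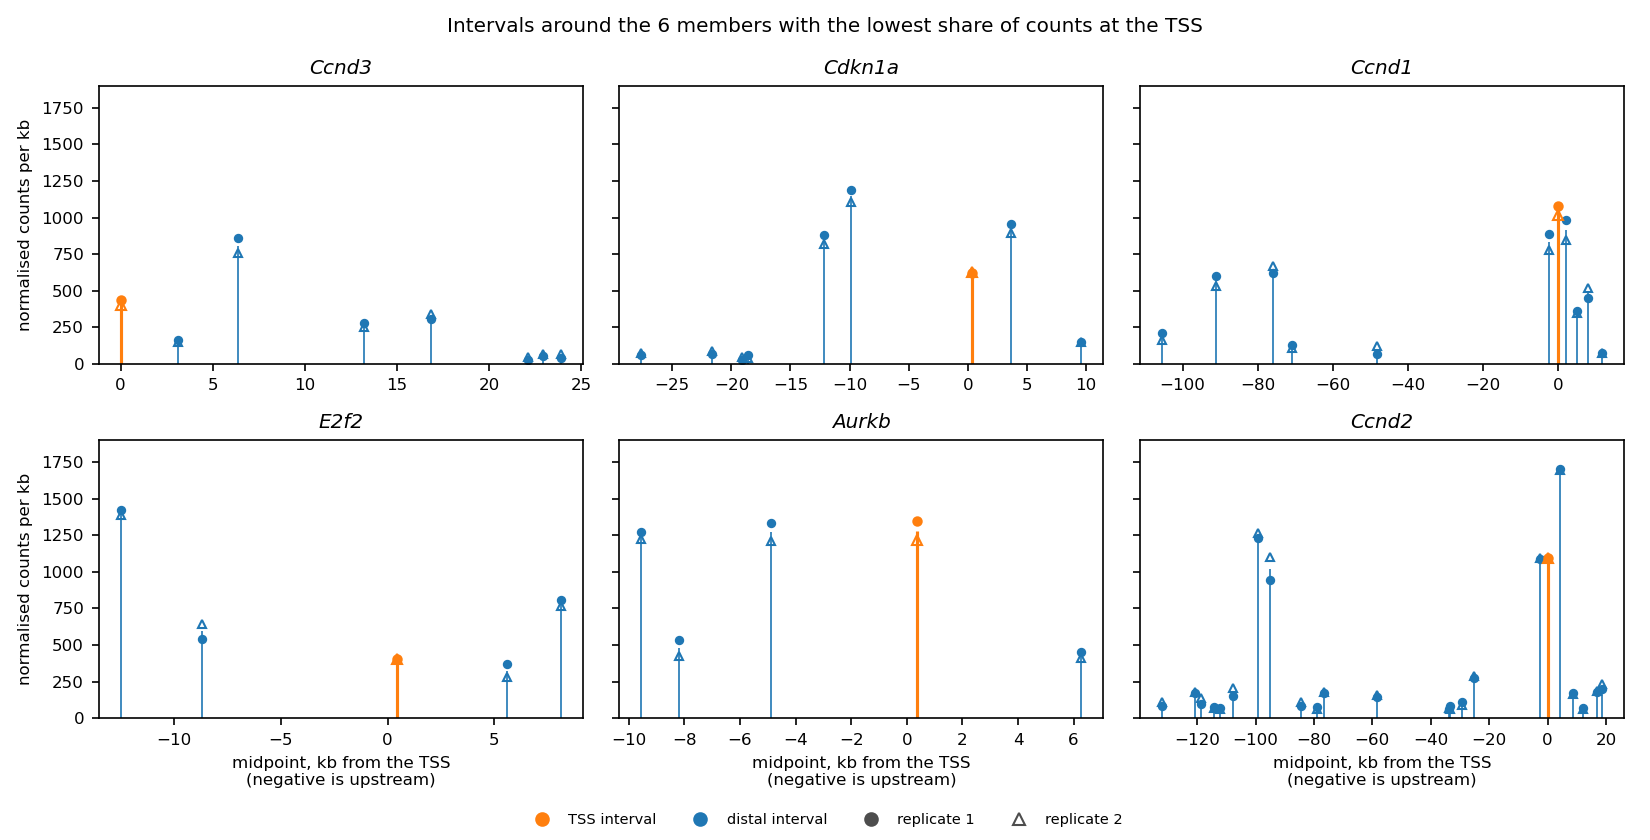
Density of the TSS interval (orange) and of each distal interval (blue) in normalised counts per kb (vertical axis) by the distance of its midpoint from the TSS in kb (horizontal axis, negative upstream), for the 6 members with the lowest share of counts at the TSS. At E2f2, Cdkn1a, Ccnd3 and Ccnd2 at least 1 distal interval stands above the TSS interval, while those of Aurkb and Ccnd1 stay below it in the mean of the replicates. In replicate 2 an Aurkb distal interval (1223) lies just above the Aurkb TSS interval (1215).

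No member interval differed between the replicates past the limit of the test. An exact binomial test, two-sided, asked of each interval whether its counts split between the libraries as the size factors did, and after Benjamini-Hochberg adjustment over all intervals it called 0 of the 290 member intervals and 0% of the 119502 intervals at an adjusted p of 0.01. At an unadjusted p of 0.05, 36 of the 290 (12.4%) and 10029 of all intervals (8.39%) passed. The test compares libraries and not conditions. The lowest adjusted p among the members, 0.0472 by this exact test, belonged to a Ccnd1 distal interval (chr7:144941193-144943627, named after its values were seen) with 2167 and 1890 counts. The median absolute log2 ratio between replicates was 0.04 for member TSS intervals and 0.06 for all TSS intervals. Of the members, 45 were lower in replicate 2, as were 68.3% of all TSS intervals, and the median log2 ratio was -0.04 for members and -0.03 for all.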

How the data were processed

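Live ATAC-seq was analysed in 1 group of 2 replicates. The table that the authors deposited holds raw counts of fragments per consensus interval on mm10, made with the nf-core atacseq pipeline 1.2.0, MACS at a false discovery rate of 0.00001 and featureCounts 2.0.1 on read pairs, with a minimum overlap fraction of 0.2 and fragments allowed in several intervals, so close intervals can share counts. The intervals were defined over 5 libraries, and 3 further columns, which match no sample here, were left aside. Weak regions that passed no peak threshold are not in the table.

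DESeq2 1.42.0 (R 4.3.3) gave the size factors, and scaled counts were divided by interval length in kb. Gene starts came from GENCODE M21, on the same assembly, for protein-coding genes outside the mitochondrial genome, and genes without a TSS interval were set to 0. Python 3.11.15, numpy 2.4.6, pandas 2.3.3 and scipy 1.17.1 were used. Each interval was tested between replicates by a two-sided exact binomial test, adjusted by Benjamini-Hochberg, at 0.01. The test was tried on simulated data first. Fragments carried no molecular identifiers, so such tests cover counting error only, and for a count of 0 the 95% upper limit is 3 counts. Promoter sequence was read from the GRCm38 genome.

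All members could be named, with at most the 10 densest distal intervals (the best of each member, mean normalised count over 100), the 6 members with most distal intervals, the genes that share a TSS interval, and, for printed promoters, the 4 densest with E2F octamers, the 3 densest with CHR and CCAAT, and the lowest member. Some items that met these rules are not reported here. The other starts of Ccnd3, Cdkn1a, Cdkn2a, E2f2, Mcm2 and Mcm5, the room of Pola1 and Ccnb2, and the extremes of the further pathway genes were named after their values were seen. The members and lists were chosen with earlier results of these data known. Alternatives covered edgeR 4.0.16 TMM or total counts, the TSS definition, filters on low counts, distance, the promoter window, the pseudocount and each replicate left out.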

Additional observations from a re-analysis of the deposited data

How the results depend on the processing

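All 54 members kept a TSS interval under every TSS definition and filter tried and in each replicate, and the counts of shared TSS intervals (8 to 9) and of members with an E2F octamer (16 to 23) stayed within 1.5 times the reported values. The 16 came from promoter windows of the RefSeq annotation, which matched only 44 members, against 2.6% of all gene symbols there. The 23 came from the window of 500 bp before to 100 bp after the TSS, against 4.46% of all protein-coding promoters. The median promoter accessibility was 1253 to 1282 with 1 replicate left out, 1480.0 normalised counts per interval when not divided by length, and 1255 without the chromosome 8 members (chosen after seeing the data). For the median percentile of the members the value was 82.9 with intervals within 1 kb of the TSS, 82.7 with any protein-coding transcript start, 78.1 for counts per interval, 73.0 among genes with a TSS interval alone, and 83.1 to 83.3 with 1 replicate left out. Of the 236 distal intervals, 153 lay within 50 kb and 87 had a mean normalised count over 100. At an adjusted p of 0.05 the exact binomial test called 1 member interval in place of 0. The share of member counts at TSS intervals, 66.3% as the mean of both replicates, was 72.4% with distal intervals within 50 kb and 69.0% with any protein-coding transcript start, both chosen after seeing the data. With TMM or total counts no member interval was called. No paired analysis was possible because both libraries formed a single group. Weak distal elements are limited by the peak threshold that defined the intervals, and no value bears on which genes the distal intervals act on.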
